A study of Mus musculus with 40 samples.

Results

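The mitochondrial chromosome of the mouse carries 37 genes, and all of them had a row in the deposited count table, picked by a gene symbol that starts with mt- among 49585 gene rows. They comprise 13 mRNA genes, 2 ribosomal RNA (rRNA) genes and 22 transfer RNA (tRNA) genes. All 37 lie on chromosome M of GRCm38 in the GENCODE annotation, so the symbol rule and the chromosome name the same genes. Their share of the counts and the count of each were described in stem cells and lymphoid progenitors that lacked or carried Mbd3, a subunit of the NuRD chromatin remodelling and deacetylase complex.

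Mitochondrial DNA is transcribed from both strands as long precursor RNAs, and tRNAs that stand between the other genes mark many of the places where the precursors are cut. The mRNAs encode membrane subunits of respiratory chain complexes I, III and IV and of the ATP synthase (complex V), while all other subunits of these complexes, and the enzymes that copy, transcribe and process mitochondrial RNA, come from nuclear genes. Haematopoietic stem cells are known for low reliance on respiration, and their descendants are known to use it more as they divide and differentiate. Most mature mitochondrial mRNAs, and the rRNAs, carry short poly(A) tails, so a cDNA method that starts from poly(A), such as Smart-seq2, can pick them up.

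The groups were Mbd3del HSC, LMPP, ALP and BLP and control HSC, LMPP, ALP and BLP, with 5 libraries each and 40 in all. Mbd3del mice had the genotype Mbd3_Del/Del and control mice Mbd3_Flox/Flox, both on a mixed C57BL6/129Ola background, and they were 46 to 51 days old. Every one of the 10 mice gave all 4 bone marrow populations: haematopoietic stem cells (HSC), lymphoid-primed multipotent progenitors (LMPP), all-lymphoid progenitors (ALP) and B cell-biased lymphoid progenitors (BLP). Each library came from a sorted pool of 150 cells for HSC and 100 cells for the others by the sample labels, and the design text gives these numbers the other way round. No source used here names the agent or driver of the deletion. For Mbd3del LMPP the library titles read floxed, whereas genotype and description read deleted. Libraries held 2974305 to 9082610 gene counts. Mbd3 was at 0 to 3.24 CPM, counts scaled to a library total of 1000000 gene counts, in the 20 Mbd3del libraries and at 8.18 to 165 CPM in the 20 control libraries. Among the gate genes, Cd48, Il7r and Ly6d followed the population labels. Cd48 averaged 4.3 CPM in Mbd3del HSC, 2.7 CPM in control HSC and at least 413 CPM in every other group. Il7r was at most 3.1 CPM on average in HSC and LMPP, and Ly6d averaged 9902 CPM in Mbd3del BLP and 7785 CPM in control BLP. The sums of the other gate genes overlapped between populations. Procr, Slamf1 and Ptprc summed to 534 to 817 CPM in HSC and 353 to 1090 CPM in BLP. Ly6a, Kit and Flt3 summed to 820 to 1402 CPM in HSC and 467 to 1832 CPM in ALP. Control mice mouse10372 and mouse10381 went against their labelled sex in the sex-linked genes, and selected results are given with and without them.

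Part of this chromosome has near-identical sequence elsewhere in the genome, and the genes there stood apart in the count table. A stretch of 4653 bases of chromosome M, chrM:6390-11042, has an almost exact copy on the minus strand of chromosome 1, chr1:24611535-24616188, where GENCODE annotates 7 unprocessed pseudogenes in the same order. Only these pseudogenes were aligned, and a copy of the bases between them is inferred from their order and spacing. The sequences below show how little separates the genes from their copies. The first pair is the start of mt-Nd3, a subunit of complex I, at chrM:9459-9511 on the plus strand and of its copy Gm28438 at chr1:24613067-24613119 on the minus strand; the capital marks T3C, the 1 mismatch in 345 aligned bases (99.7% identity), with positions counted from 1 at the 5′ end of mt-Nd3. The second pair is the first 80 bases of mt-Co2, a core subunit of complex IV, at chrM:7013-7092 on the plus strand and of its copy Gm28661 at chr1:24615486-24615565 on the minus strand, which were identical over all 681 aligned bases. All sequences are from GENCODE M21 transcripts on GRCm38 and are written 5′ to 3′.
mt-Nd3: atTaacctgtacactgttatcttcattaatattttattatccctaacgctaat
Gm28438: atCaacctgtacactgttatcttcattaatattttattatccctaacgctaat
mt-Co2: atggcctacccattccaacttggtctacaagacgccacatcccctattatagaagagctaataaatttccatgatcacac
Gm28661: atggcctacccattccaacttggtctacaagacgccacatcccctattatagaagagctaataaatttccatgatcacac

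Of the 11 mitochondrial genes that lie wholly inside the copied stretch, 9 had at most 1 count in each of the 40 libraries. These were mt-Co2, mt-Co3 (the other core subunit of complex IV in the stretch), mt-Atp6 and mt-Atp8 (both ATP synthase subunits), mt-Nd4l (complex I) and the tRNA genes mt-Ts1, mt-Td, mt-Tk and mt-Tg. mt-Atp8 and the tRNA genes had no aligned copy of their own. Mitochondrial mRNAs such as mt-Co2, mt-Co3 and mt-Atp6 are usually among the most abundant transcripts of a cell, so a count of 0 here cannot be read as absence of the RNA. The copies themselves held few counts: the 7 pseudogenes had 121 counts over all libraries, of which Gm29216, the partial copy of mt-Co1, had 116. The other 2 genes inside the stretch were counted at low levels, mt-Nd3 with 7 to 69 counts and mt-Tr, the arginine tRNA, with 0 to 14 counts per library. No source used here says how reads that match several places were handled, and the part of that step in these zeros was not tested.

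Genes that lie partly inside the stretch were well counted. mt-Co1, the catalytic core of complex IV, shares its last 483 bases with Gm29216 at 99.8% identity, and mt-Nd4, a complex I subunit, shares its first 876 of 1378 bases with Gm28439 at 100% identity. The counts are per gene and do not show where in a gene the reads lay. Divided by its whole length, the mean of mt-Nd4 was 1645 CPM per kilobase, and the same counts divided by the 502 bases without a near-identical copy give 4515 CPM per kilobase. For mt-Co1 these quotients were 6397 CPM per kilobase over the whole length and 9306 over the 1062 bases without a copy. Less similar nuclear copies exist for other genes, such as Gm13340 on chromosome 2, which matches mt-Co1 at 97.6% identity and held 746 counts over all libraries, and Gm4076 on chromosome 13, which matches part of mt-Nd5 at 95.2% identity and held 20 counts.

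**Figure D1:**
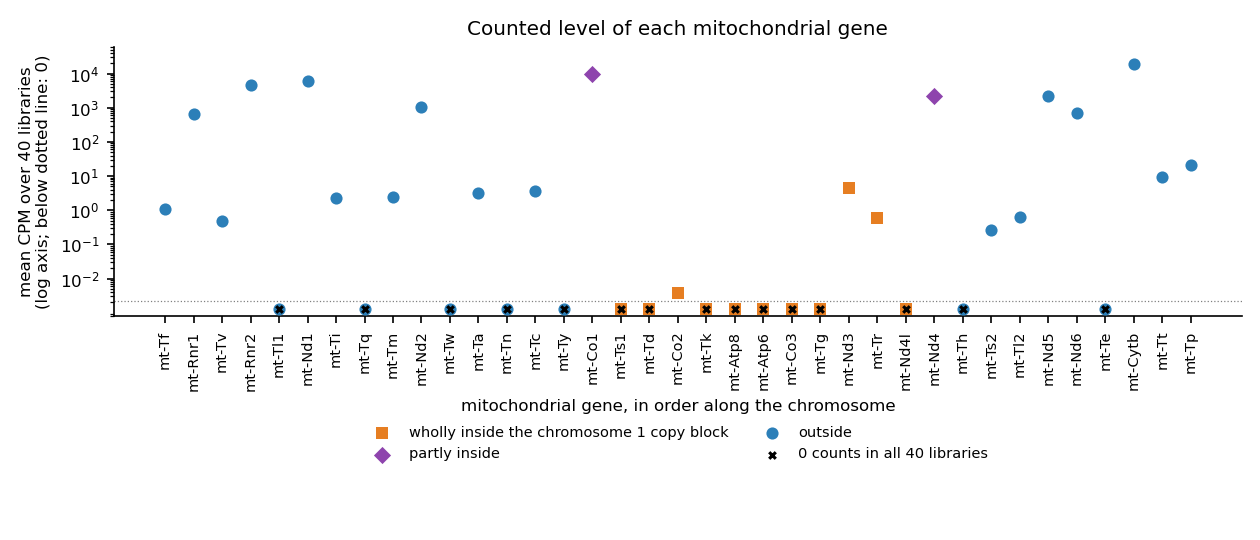
Mean level of each of the 37 mitochondrial genes over the 40 libraries, in CPM on a log axis, in their order along the chromosome. Colours and shapes give the position relative to the stretch copied on chromosome 1, and crosses below the dotted line mark the 15 genes with 0 counts in every library.

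In all, 15 of the 37 genes had 0 counts in every library: mt-Co3, mt-Atp6, mt-Atp8, mt-Nd4l and 11 tRNA genes. mt-Atp8 and mt-Atp6 also overlap each other by 43 bases, chrM:7927-7969 on the plus strand, printed here with the start codon of mt-Atp6 in capitals because a read that lies within those bases belongs to both genes.
mt-Atp8 and mt-Atp6: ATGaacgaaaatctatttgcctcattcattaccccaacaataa
The tRNA genes together held 99 to 790 counts per library, 0.0394% to 0.209% of the mitochondrial counts. Of these, mt-Tp (proline) and mt-Tt (threonine) led with 43 to 399 and 9 to 218 counts per library. The 2 genes are neighbours that point towards each other, mt-Tt at chrM:15289-15355 on the plus strand and mt-Tp at chrM:15356-15422 on the minus strand, just past mt-Cytb. mt-Tl1 (leucine), which stands between mt-Rnr2 and mt-Nd1 at chrM:2676-2750 on the plus strand, had 0 counts in all libraries although its neighbours had at least 10476 and 11608 counts in every library. Full-length cDNA libraries recover few fragments as short as a tRNA, and a read counted on a tRNA gene can come from an uncut precursor; the counts do not tell these apart.
mt-Tp: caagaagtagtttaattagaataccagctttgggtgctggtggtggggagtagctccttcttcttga
mt-Tt: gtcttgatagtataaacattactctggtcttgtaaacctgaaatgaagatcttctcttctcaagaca
mt-Tl1: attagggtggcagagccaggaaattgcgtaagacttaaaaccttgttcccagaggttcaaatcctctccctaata

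Nearly all mitochondrial counts therefore came from 9 genes, each above 100 counts in every library: mt-Rnr1 and mt-Rnr2, the RNAs of the small and large mitochondrial ribosomal subunits, and the mRNAs mt-Nd1, mt-Nd2, mt-Nd4, mt-Nd5 and mt-Nd6 of complex I, mt-Co1 of complex IV and mt-Cytb, the cytochrome b of complex III. Per kilobase of gene length and over all libraries, mt-Cytb was the most counted, with 16551 ± 7560 CPM per kilobase (SD, n = 40), and it led the 7 mRNAs in each of the 40 libraries. mt-Nd1 followed with 6427 ± 1609 CPM per kilobase and mt-Co1 with 6397 ± 1905 CPM per kilobase, a difference far within their spread. mt-Rnr2 averaged 3027 ± 1453 CPM per kilobase and mt-Nd4 1645 ± 349 CPM per kilobase. The order given here is by whole gene length. Over only the bases without a near-identical copy, mt-Co1 was at 9306 CPM per kilobase, above mt-Nd1, and mt-Nd4 at 4515, above mt-Rnr2. mt-Nd6, at chrM:13552-14070 the only mRNA gene on the minus strand, averaged 1396 ± 406 CPM per kilobase, mt-Nd5 1236 ± 272 CPM per kilobase and mt-Nd2 1032 ± 269 CPM per kilobase. These last 3 overlap in their spread; mt-Nd2 was the lowest of the 7 in 34 libraries. mt-Nd5 and mt-Nd6 overlap by 14 bases on opposite strands, and strand was not marked, so a read there cannot be given to either. A read elsewhere on mt-Nd6 can also come from RNA of either strand. The level of mt-Nd6 can therefore not be read as its mRNA alone. mt-Rnr1 had the lowest level of the 9, 671 ± 417 CPM per kilobase.

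The summed share of gene counts on the 37 genes lay between 2.35% and 7.75% over the 40 libraries, with a median of 4.53%. The 95% Wilson intervals of single libraries were 0.0218 to 0.0548 percentage points wide, far less than the distance between libraries, and cover counting error only, since amplified reads are not independent molecules. In Mbd3del HSC the share was 5.56%, 6.19%, 3.06%, 6.53% and 3.09%, against 4.48%, 7.01%, 5.95%, 5.81% and 3.53% in control HSC. Mbd3del LMPP had 4.27%, 3.47%, 2.35%, 4.66% and 4.92%, against 3.56%, 4.85%, 7.75%, 4.10% and 4.58% in control LMPP. The genotypes overlapped in both populations, and the highest share of the study belonged to the control LMPP of mouse10372. Mbd3del ALP had 5.09%, 4.16%, 5.41%, 2.55% and 6.45%, against 4.70%, 3.32%, 3.43%, 6.35% and 3.08% in control ALP. Mbd3del BLP had 4.41%, 3.69%, 4.32%, 5.96% and 5.69%, against 4.07%, 4.16%, 3.8%, 4.83% and 5.86% in control BLP. Here, too, the groups overlapped. In pooled cells a lower share of counts can reflect less mitochondrial RNA per cell, fewer cells that carry it or more RNA of other genes, which cannot be told apart.

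The differences between genotypes were smaller than the spread within groups. The mean share was 4.89% ± 1.69 in Mbd3del HSC and 5.35% ± 1.36 in control HSC (SD, n = 5 each), and 3.94% ± 1.04 in Mbd3del LMPP against 4.97% ± 1.63 in control LMPP. Mbd3del ALP averaged 4.73% ± 1.47 and control ALP 4.18% ± 1.37, and Mbd3del BLP 4.82% ± 0.968 and control BLP 4.54% ± 0.830. In LMPP the difference of the means was -1.03 percentage points, that of the medians -0.306, and that of the means -0.236 without the 2 control mice that went against their labelled sex. In ALP the difference of the means was 0.557 percentage points, that of the medians 1.66, and that of the means -0.0592 without those mice. No step between populations separated the shares either: within a genotype, all groups overlapped, and the direction of BLP against HSC within the same mouse was upward in 2 of 5 Mbd3del mice and in 1 of 5 control mice.

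**Figure D2:**
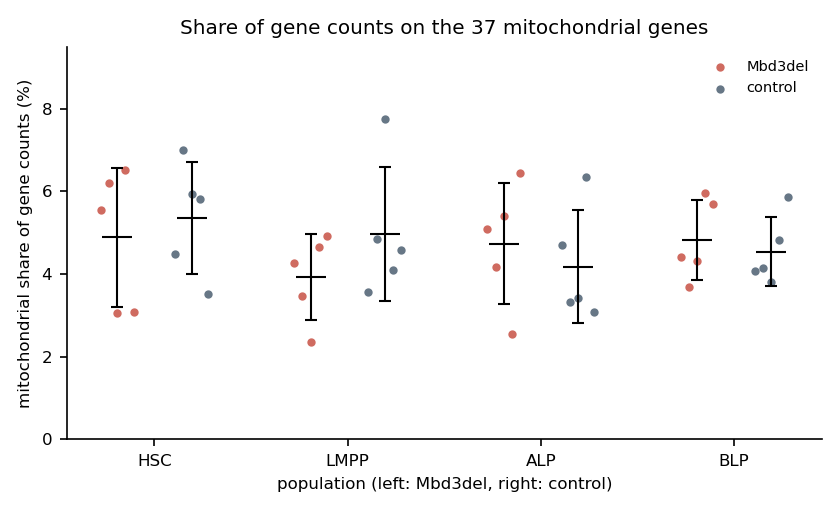
Share of gene counts on the 37 mitochondrial genes in percent, 1 point per library, for each population with Mbd3del on the left and control on the right; black bars give the mean and SD of 5 libraries. All pairs of groups overlap between 2.35% and 7.75%.

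Gene by gene, deletion of Mbd3 left no mitochondrial gene past the threshold in any population. Depending on the population, 14 to 17 of the 37 genes passed the filter on low counts, namely the 9 well-counted genes, mt-Nd3 and 4 to 7 tRNA genes. With edgeR's quasi-likelihood test and Benjamini-Hochberg adjustment over all genes, 0 of 14 were called in HSC, where 0.0176% of all tested genes were called, 0 of 16 in LMPP (0.0183% of all), 0 of 17 in ALP (0.0182%) and 0 of 17 in BLP (0.0743%). None had an unadjusted p under 0.05 with edgeR, and DESeq2 also called 0 in each population, with 1 unadjusted p under 0.05 in LMPP. Calls were rare among all tested genes too. The standard errors of the 9 well-counted genes ran from 0.17 to 0.53 on the log2 scale, and differences inside the intervals that go with them could not be detected with 5 libraries per group.

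The member with the smallest unadjusted p between genotypes was mt-Cytb in LMPP. It stood at 11782, 12251, 7740, 19993 and 21158 CPM in Mbd3del LMPP and at 11454, 23241, 43030.1, 18124 and 20436 CPM in control LMPP. The groups overlapped widely, with the control library of mouse10372 far above the rest. The edgeR log2 fold change was -0.84 ± 0.39 (SE), with a 95% interval of -1.69 to 0.0056, an unadjusted p = 0.0513 and an adjusted p = 0.936. In LMPP 3 of 16 tested members had a positive log2 fold change, with a median of -0.26 against 0.012 over all tested genes. Without the 2 control mice that went against their labelled sex it was 9 of 16 with a median of 0.023, and without mouse10372 alone 7 of 16 with a median of -0.0057. Without Mbd3del mouse10365 the median was -0.086. In ALP 13 of 17 were positive, with a median of 0.18 against -0.040 over all tested genes. Without the 2 control mice it was 10 of 17 with a median of 0.018, against 0.013 over all tested genes. Leaving out 1 library gave medians from 0.084, without control mouse10372, to 0.32, without control mouse10380. In HSC 7 of 14 were positive (median -0.010) and in BLP 11 of 17 (median 0.088).

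The 2 rRNA genes had the next smallest unadjusted p-values of the well-counted genes, in ALP. mt-Rnr2 had 4889, 3448, 3258, 4040 and 3792 CPM in Mbd3del ALP and 6332, 5083, 16207, 2651 and 3112 CPM in control ALP. The single value of 16207 CPM, in mouse10372, lay far above the other 4 control libraries, which overlapped the Mbd3del ones. The edgeR log2 fold change of mt-Rnr2 was -0.69 ± 0.38 (SE, unadjusted p = 0.0938, adjusted p = 1.0), and that of mt-Rnr1 -0.81 ± 0.48 (SE, unadjusted p = 0.115). In that control library the rRNA genes held 55.0% of the mitochondrial counts, while mt-Co1 was at 1955 CPM, the lowest of all 40 libraries. It was also the library with the most genes detected, 15745, at 3363182 gene counts.

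**Figure D3:**
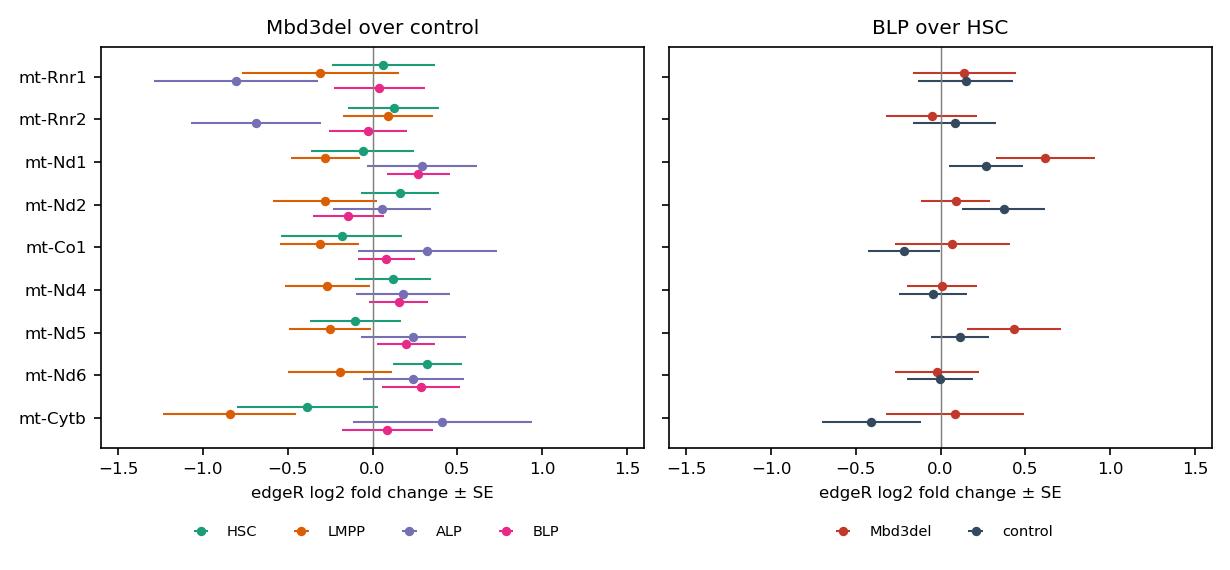
edgeR log2 fold changes with their standard errors for the 9 well-counted mitochondrial genes, Mbd3del over control in each population (left panel) and BLP over HSC in Mbd3del and control mice (right panel); each is a comparison of 5 against 5 libraries. No value was past an adjusted p of 0.05.

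Across differentiation many nuclear genes changed, while no mitochondrial gene was called. Between BLP and HSC, the ends of the path, 19.3% of all tested genes were called in Mbd3del mice and 15.7% in control mice, against 0 of 16 mitochondrial genes in each. In Mbd3del mice the step LMPP over HSC called 6.74% of all tested genes, ALP over LMPP 2.18% and BLP over ALP 0.636%. In control mice these steps called 5.93%, 0.938% and 0.266%. In every one of these steps 0 of 16 or 17 tested mitochondrial genes were called by edgeR or DESeq2, except that DESeq2 called mt-Tp in BLP over HSC of Mbd3del mice. DESeq2 gave unadjusted p-values under 0.05 for 1 member in LMPP over HSC and 2 in BLP over HSC of Mbd3del mice, and for 1 in BLP over HSC of control mice. Over all 8 step comparisons with edgeR, an unadjusted p under 0.05 occurred for mt-Tp in BLP over HSC of Mbd3del mice and for mt-Tc (the cysteine tRNA) in BLP over HSC of control mice. The share of genes called between genotypes in how a step ran was 0 or, for BLP over HSC, 0.0472%, and no mitochondrial gene was among them, nor did any have an unadjusted p under 0.05.

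mt-Tp, printed above, had 19.3, 34.7, 22, 48.7 and 23.3 CPM in Mbd3del BLP and 15.3, 14.8, 8.57, 19.9 and 7.74 CPM in Mbd3del HSC. All but the lowest BLP library lay above all HSC libraries. The edgeR log2 fold change was 1.34 ± 0.49 (SE, 95% interval 0.29 to 2.38), with an adjusted p = 0.0724; DESeq2 gave an adjusted p = 0.0349. In control mice mt-Tp had 18.7, 21.5, 20.3, 26.1 and 46.5 CPM in BLP and 21.8, 23.0, 25.8, 18 and 8.76 CPM in HSC, which overlapped (log2 fold change 0.53 ± 0.47, SE, adjusted p = 0.535). The difference between the genotypes was 0.80 ± 0.66 on the log2 scale (SE, adjusted p = 0.851).

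mt-Tc was counted at 4.28, 4.66, 1.19, 3.71 and 15.6 CPM in control BLP and at 1.40, 2.07, 0.311, 1.61 and 0.695 CPM in control HSC. The lowest BLP library fell within the range of HSC. The edgeR log2 fold change was 2.33 ± 0.93 (SE, 95% interval 0.34 to 4.33), with an adjusted p = 0.115, at counts of 1 to 56 per library over the study. Over the 12 comparisons of 2 groups, mt-Nd3 in BLP over ALP of Mbd3del mice was the only case of a tested member whose groups did not overlap in CPM. It had 5.46, 6.48, 5.98, 4.88 and 10.6 CPM in Mbd3del BLP and 4.60, 3.58, 4.45, 3.24 and 3.54 CPM in Mbd3del ALP, a comparison in which 2.71% of all tested genes did not overlap. In the other 11 comparisons 0 tested members were without overlap. Of all tested genes, 1.02% did not overlap between genotypes in HSC, 1.46% in LMPP, 0.772% in ALP and 2.58% in BLP. In Mbd3del mice it was 9.23% in LMPP over HSC, 4.98% in ALP over LMPP and 19.4% in BLP over HSC, and in control mice 9.45% in LMPP over HSC, 3.5% in ALP over LMPP, 1.47% in BLP over ALP and 16.9% in BLP over HSC. This gene has its near-identical copy over 345 of its 348 bases. The edgeR log2 fold change was 0.84 ± 0.72 (SE, adjusted p = 0.908).

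Within the mitochondrial counts, the share of mt-Nd1 differed between BLP and HSC in both genotypes. mt-Nd1 encodes a membrane subunit of complex I and is the first mRNA gene after the rRNA genes. In Mbd3del BLP it took 15.7%, 16.4%, 16%, 15.3% and 16.5% of the mitochondrial counts, against 11.5%, 11.1%, 11.8%, 11.7% and 12.0% in Mbd3del HSC. In control BLP it took 15.8%, 15.2%, 12.7%, 14.1% and 13.6%, against 10.4%, 11.4%, 10.3%, 9.52% and 11.2% in control HSC. All BLP libraries lay above all HSC libraries in both genotypes, and the share was higher in BLP than in HSC of the same mouse in all 10 mice. In Mbd3del mice the means were 15.96% ± 0.502 in BLP and 11.6% ± 0.331 in HSC, a difference of 4.34 percentage points, and in control mice 14.3% ± 1.24 in BLP and 10.6% ± 0.750 in HSC, a difference of 3.72 percentage points (SD, n = 5 each).

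As a share of all mitochondrial counts, the means of LMPP and ALP lay between those of BLP and HSC. mt-Nd1 took 14.1% ± 1.02 of the mitochondrial counts in Mbd3del LMPP and 14.2% ± 1.02 in Mbd3del ALP, against 12.9% ± 2.45 in control LMPP and 13.2% ± 2.02 in control ALP (SD, n = 5 each). Mbd3del LMPP did not overlap Mbd3del HSC. Control LMPP overlapped control HSC through 1 library, that of mouse10372, at 8.70%. Between genotypes the groups overlapped in every population.

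Set against all genes, a separation of this kind is common between BLP and HSC. Counted per mitochondrial count, 15% of all tested genes did not overlap between BLP and HSC in Mbd3del mice and 13.3% in control mice. Of the 9 well-counted mitochondrial genes, 1 did so in Mbd3del mice, mt-Nd1, and 2 in control mice, mt-Nd1 and mt-Nd2, whose share was 2.71% ± 0.236 in control BLP and 1.88% ± 0.103 in control HSC. In Mbd3del LMPP over HSC it was 1 of 9, mt-Nd1, with 6.96% of all tested genes. In the remaining comparisons it was 0 of 9, where the share of all tested genes was 4% in ALP over LMPP and 1.79% in BLP over ALP of Mbd3del mice, and 6.63% in LMPP over HSC, 2.32% in ALP over LMPP and 0.963% in BLP over ALP of control mice. Between genotypes it was also 0 of 9, against 0.519% of all tested genes in HSC, 1.5% in LMPP, 0.445% in ALP and 1.88% in BLP. No p was computed for these shares, since they were singled out after their values were seen. As a level among all gene counts, mt-Nd1 had an edgeR log2 fold change of BLP over HSC of 0.62 ± 0.29 in Mbd3del mice (SE, adjusted p = 0.166) and 0.27 ± 0.22 in control mice (SE, adjusted p = 0.50), so its level was not called.

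BLP and HSC were also apart with 3 other denominators, which were chosen after the values were seen. As a share of the counts of the 7 well-counted mRNAs, mt-Nd1 lay between 16.8% and 18.9% in Mbd3del BLP and between 12.2% and 16.2% in Mbd3del HSC, and between 14.04% and 18.9% in control BLP and 10.1% and 12.9% in control HSC. With both rRNAs and mt-Cytb left out, it lay between 29.4% and 31.7% in Mbd3del BLP and 21.98% and 25.6% in Mbd3del HSC, and between 27.3% and 29.4% in control BLP and 22.2% and 24.7% in control HSC. With mt-Cytb alone left out the gap was narrow: the lowest value was 22.3% in Mbd3del BLP and the highest 22.1% in Mbd3del HSC, and the lowest was 21.01% in control BLP and the highest 20.9% in control HSC. In control mice the means of LMPP and ALP did not both lie between those of HSC and BLP with these 3 denominators. The mean was 17.3% in ALP and 16.4% in BLP over the 7 mRNAs, and 29.2% in ALP and 28.3% in BLP without rRNAs and mt-Cytb. Without mt-Cytb alone it was 23.4% in LMPP and 22.8% in BLP. The summed level of the 4 megakaryocyte and platelet markers was 0 to 3.09 CPM in BLP and 35.7 to 139 CPM in HSC, and that of the 6 erythroid markers 0 to 5.66 CPM in BLP and 16.6 to 70.2 CPM in HSC. The 3 stromal and endothelial markers summed to 144 to 361 CPM in BLP and 17.3 to 102 CPM in HSC, nearly all of it Pecam1 in BLP, where Cxcl12 was at most 0.128 CPM and Col1a1 at most 0.244 CPM. The 6 neutrophil and monocyte markers summed to 81.8 to 488 CPM in BLP, nearly all of it Mpo, and to 4.32 to 1639 CPM in HSC, where S100a8 reached 1157 CPM in 1 Mbd3del library. The 2 T cell markers were at 0 in all HSC libraries and at most 3.52 CPM in BLP, and the 2 macrophage markers at most 3.95 CPM in BLP and 4.28 CPM in HSC. By the sample labels BLP pools held 100 cells and HSC pools 150. The part of these differences in the mt-Nd1 share was not tested.

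**Figure D4:**
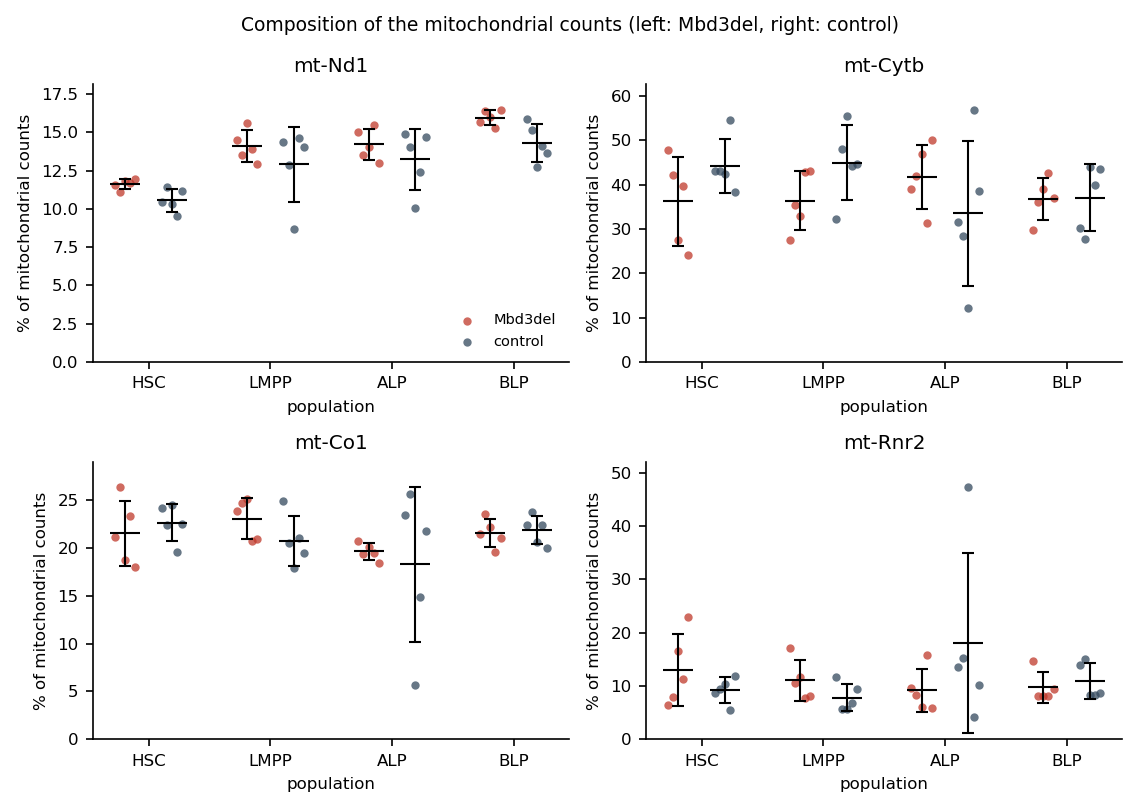
Share of the mitochondrial counts held by mt-Nd1, mt-Cytb, mt-Co1 and mt-Rnr2 in percent, 1 point per library, for each population with Mbd3del on the left and control on the right; black bars give the mean and SD of 5 libraries. All mt-Nd1 shares in BLP lie above all those in HSC of the same genotype, while the other 3 genes overlap between all neighbouring groups.

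The other genes varied widely between libraries as a share of the mitochondrial counts. mt-Cytb took 12.1% to 56.9% of the mitochondrial counts over the 40 libraries, the complex I mRNAs together 19.7% to 34.9%, mt-Co1 5.71% to 26.4% and the rRNA genes 4.75% to 55.0%. In Mbd3del mice mt-Co1 took 19.7% ± 0.879 in ALP and 23.1% ± 2.12 in LMPP, lower in ALP of the same mouse in 5 of 5 mice, and 21.6% ± 1.46 in BLP, higher than in ALP of the same mouse in 5 of 5 mice (SD, n = 5 each). The groups overlapped in both steps, and this was singled out after its values were seen. mt-Cytb averaged 36.2% ± 10.04 in Mbd3del HSC and 44.2% ± 6.08 in control HSC, and 36.8% ± 4.71 in Mbd3del BLP and 37.1% ± 7.63 in control BLP (SD, n = 5 each). mt-Cytb and mt-Nd1 did not keep a fixed ratio: mt-Cytb had 1.20 to 6.39 times the counts of mt-Nd1. mt-Rnr2 had 5.14 to 23.7 times the counts of mt-Rnr1, although both lie next to each other on the same precursor.

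By the median over pairs of genes, deviations of single libraries from their group means were more alike within a class of RNA than between classes. Among the 7 mRNAs, the correlation of the deviations of log2 CPM had a median of r = 0.71 over 21 pairs, from -0.014 to 0.91. Between mt-Rnr1 and mt-Rnr2 it was r = 0.88. Between an mRNA and an rRNA it was lower, with a median of r = 0.16 over 14 pairs, from -0.35 to 0.65. Single pairs went against this order. mt-Nd2 had r = 0.65 with mt-Rnr1 and 0.17 with mt-Co1, and mt-Nd6 had r = 0.53 with mt-Rnr1 and -0.014 with mt-Co1. These are descriptions over the same 40 libraries, whose values share a library total, and they carry no test.

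Libraries with a higher mitochondrial share detected fewer genes. At an equal number of gene counts, the libraries detected 11425 to 15550 genes, and the correlation with the mitochondrial share was r = -0.55 over all 40 libraries (Spearman's rho = -0.51), and -0.47 without the 2 libraries farthest from the median number of genes. Within populations it was -0.83 in HSC, -0.76 in LMPP, -0.77 in ALP and -0.34 in BLP (n = 10 each). With the share of the 10 most counted nuclear genes the correlation was r = 0.89 in HSC, 0.92 in LMPP, 0.90 in ALP and 0.71 in BLP. The values come from the same libraries and the shares are parts of 1 total, so no test is given. Detected genes averaged 13395 ± 325 in Mbd3del LMPP and 12386 ± 680 in control LMPP (SD, n = 5 each), and the part of this in the difference in mitochondrial share there was not tested.

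**Figure D5:**
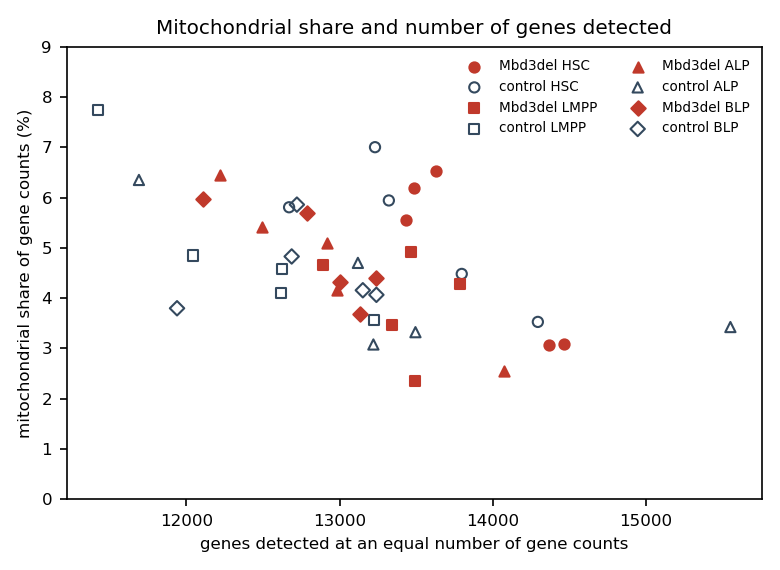
Mitochondrial share of gene counts in percent against the number of genes detected at an equal number of gene counts, 1 point per library, filled for Mbd3del and open for control, with 1 shape per population. Libraries with more genes detected had lower shares, r = -0.55 over 40 libraries.

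Nuclear genes for the same machinery were read from 5 lists with 211 genes, all but Ndufb1 present in the table. In the genotype comparisons no gene of these lists was called by edgeR in any population, where 0.0176% to 0.0743% of all tested genes were called. The factors that act on the mitochondrial chromosome itself were counted in all groups. Tfam, which packages mitochondrial DNA and starts its transcription, averaged 108 to 177 CPM by group, Lrpprc, which stabilises mitochondrial mRNAs, 48.1 to 94.1 CPM, and Twnk, the mitochondrial helicase, 20.6 to 49.2 CPM. Polg, the mitochondrial DNA polymerase, averaged 14.9 to 30.1 CPM, Polrmt, the mitochondrial RNA polymerase, 8.1 to 19.1 CPM and Tfb2m, a transcription factor that works with it, 5.2 to 10.4 CPM.

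Between BLP and HSC some nuclear respiratory chain genes rose, 12 in Mbd3del mice and 2 in control mice. In Mbd3del mice 12 of the 73 tested genes on the nuclear respiratory chain list rose and 0 fell, where 9.48% of all tested genes rose, with a median log2 fold change of 0.44 against -0.11 over all tested genes. In control mice 2 of 73 rose and 0 fell, where 7.34% of all tested genes rose, with a median of 0.10 against -0.0069. Cox5a, a nuclear subunit of complex IV, rose by a log2 fold change of 1.498 ± 0.25 in Mbd3del mice (SE, edgeR adjusted p = 0.000609), to 300 ± 93.4 CPM in BLP against 123 ± 10.5 CPM in HSC (SD, n = 5 each), and by 0.99 ± 0.21 in control mice (SE, adjusted p = 0.00409). Sdhb, the iron-sulphur subunit of complex II, which has no mitochondrially encoded part, rose by a log2 fold change of 1.14 ± 0.27 in Mbd3del mice (SE, adjusted p = 0.00864) and of 0.71 ± 0.19 in control mice (SE, adjusted p = 0.0175, and 0.0632 with the mouse as a block, which leaves Cox5a as the 1 called gene of this list in control mice). Ndufa1, a subunit of complex I, rose by 0.90 ± 0.27 in Mbd3del mice (SE, adjusted p = 0.0313). The difference between genotypes was not called for any gene of the lists.

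On the other lists the calls in BLP over HSC were as follows, where 19.3% of all tested genes were called in Mbd3del mice and 15.7% in control mice. Of 78 mitochondrial ribosome genes, all of them nuclear, Mrpl18 rose by a log2 fold change of 1.09 and Mrpl28 by 0.72 in Mbd3del mice, and Mrpl52 fell by 1.17 in Mbd3del mice and by 1.36 in control mice. The 3 encode proteins of the large subunit. Of 29 genes for mitochondrial RNA processing, Hsd17b10, a subunit of the enzyme that cuts the 5′ ends of mitochondrial tRNAs, fell in both: it averaged 228 ± 60.8 CPM in Mbd3del BLP and 679 ± 123 CPM in Mbd3del HSC, and 266 ± 72.6 CPM in control BLP and 675 ± 64.7 CPM in control HSC (SD, n = 5 each). Its log2 fold change was -1.37 ± 0.26 in Mbd3del mice and -1.25 ± 0.21 in control mice (SE, edgeR adjusted p = 0.00137 and 0.000731). Of 19 genes for mitochondrial DNA maintenance and transcription, Mterf4, which acts in assembly of the mitochondrial ribosome, fell in Mbd3del mice by 1.69 on the log2 scale (SE 0.53, adjusted p = 0.0381). Among 9 regulators of mitochondrial biogenesis, Myc rose in control mice by a log2 fold change of 0.87 ± 0.25 (SE, adjusted p = 0.0294, and 0.102 with the mouse as a block). In LMPP over HSC, Myc rose by a log2 fold change of 1.36 in Mbd3del mice and 1.25 in control mice, Cox5a by 0.77 in Mbd3del mice (edgeR adjusted p = 0.0411, and 0.0521 with the mouse as a block) and 1.11 in control mice, and Ndufa4, a protein of complex IV, by 1.31 in Mbd3del mice and 1.46 in control mice. Atp5b, the catalytic beta subunit of the ATP synthase, rose by 0.89 in Mbd3del mice. In ALP over LMPP and in BLP over ALP no listed gene was called in either genotype, where 2.18% and 0.636% of all tested genes were called in Mbd3del mice and 0.938% and 0.266% in control mice.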

How the data were processed

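RNA from pools of sorted bone marrow cells was read by Smart-seq2 with a Nextera XT preparation, which does not mark strand and has no molecular identifiers. For all 40 libraries the authors deposited raw counts of reads by gene in 1 table. Per the submitters' processing notes the tools were STAR 2.5.2b and HTSeq 0.6.1p1 and the build GRCm38; the sources used here do not give the annotation release, strand setting or handling of multiply mapped reads. Of 128910 rows, 49585 are genes and 79325 are repRegion rows, left out of totals and tests, with 0.205% to 2.28% of counts per library. Symbols and coordinates came from GENCODE M21 on GRCm38, which matched 49326 gene rows.

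Groups followed the labels. The 16 comparisons were each fitted to the libraries they compare, with edgeR 4.0.16 in R 4.3.3 over all gene rows, using the quasi-likelihood test with robust dispersions, TMM scaling, a filter on low counts (at least 10 counts in enough libraries and 15 in all), and Benjamini-Hochberg adjusted p-values at 0.05. The script was tested on simulated data. Shares, CPM and CPM per kilobase were computed from the counts; 3 counts correspond to 0.330 to 1.01 CPM. p-values measure the spread between the libraries of a group, each from a different mouse. A library is 1 sorted pool, so this spread holds mouse and pool together. Copies of mitochondrial genes were sought among annotated transcripts with blastn 2.17.0 (at least 95% identity over 200 bases), in place of a genome search, so unannotated copies are not seen. Detected genes were compared at 2974305 counts per library, the smallest total. All 37 genes are accounted for; of the lists of nuclear genes, up to 3 called genes per direction and comparison were named by fold, and 6 whatever their result. The genes and lists were chosen with earlier results of these data known. Same-numbered libraries come from the same mouse; their deviations from group means correlated by 0.011 to 0.091 on average over 8938 genes, and a fit with the mouse as a block was an alternative, beside DESeq2 1.42.0, other scalings and filters and leaving out libraries.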

Additional observations from a re-analysis of the deposited data

Results flagged for a closer look

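Each of the 9 well-counted mitochondrial genes and the summed share was checked in each of the 8 groups for a library far from the other 4, which made 80 checks. A library stood apart in 9 of them, where chance alone would give about 1 in 20 for separate, normally distributed checks. The 10 measures share libraries and are correlated, so these checks are not separate. In 7 of the 9 cases it belonged to control mouse10372. In control ALP that mouse had 2620 CPM of mt-Rnr1, against 282 to 885 CPM in the other 4 libraries, and 16207 CPM of mt-Rnr2, against 2651 to 6332 CPM. In control LMPP it had 13912 CPM of mt-Co1, against 8625 to 9956 CPM in the others, 3161 CPM of mt-Nd5, against 1895 to 2124 CPM, and 942 CPM of mt-Nd6, against 528 to 629 CPM. In control BLP it was low, with 1643 CPM of mt-Nd4, against 2235 to 2458 CPM, and 1937 CPM of mt-Nd5, against 2324 to 2467 CPM. Of the remaining cases, control mouse10358 had 3041 CPM of mt-Nd5 in HSC, against 1903 to 2136 CPM, and Mbd3del mouse10360 had 7305 CPM of mt-Rnr2 in LMPP, against 2742 to 3938 CPM.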

How the results depend on the processing

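Of 260 repeats of the count of mitochondrial genes called, 5 gave a call, where the main count was 0. In BLP over HSC of Mbd3del mice the count was 1 with DESeq2, with the newer edgeR estimator and with a joint fit of all 40 libraries, each time mt-Tp (log2 fold change 1.32, 1.45 and 1.32, adjusted p = 0.0349, 0.0264 and 0.0383, against 0.0724 in the main analysis). In BLP over HSC of control mice it was 1 with the joint fit, mt-Tc (adjusted p = 0.0355, against 0.115), and from 0 to 1 over the fits that left out 1 mouse each: without control mouse10381, mt-Cytb was called (log2 fold change -0.80, adjusted p = 0.0362). The cause was not tested. In the other comparisons every fit without 1 library gave 0. With the mouse as a block (replicate block) the count was 0 in all comparisons between populations, and the block changed no call of a mitochondrial gene, while of the nuclear genes named it ended those of Sdhb and Myc in BLP over HSC of control mice and of Cox5a in LMPP over HSC of Mbd3del mice; the smallest adjusted p in BLP over HSC was 0.0835 in Mbd3del mice and 0.279 in control mice.

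The 168 repeats of the 12 differences in share all stayed within 1 SD of the main value, taken as the pooled SD of the 2 groups compared, and 18 had the opposite sign. Every main difference was smaller than this SD. A repeat of the opposite sign can therefore stay within it, so the measure says little about how stable a difference was. Without the 2 control mice that went against their labelled sex, control ALP over LMPP was 0.621 percentage points, against -0.792 with them, and control BLP over ALP -0.442, against 0.367. Control LMPP over HSC was -1.59, against -0.386, and the genotype difference in HSC -0.880, against -0.469. In control LMPP over HSC, 1 of 16 tested members then had a positive log2 fold change (median -0.33), against 11 of 16 with them (median 0.099). For control ALP over LMPP it was 15 of 16 (median 0.32), against 7 of 16 (median -0.075).

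Counts over all genes depended on the tool. DESeq2 called 14, 36, 14 and 158 genes between genotypes in HSC, LMPP, ALP and BLP, where edgeR called 2, 2, 2 and 8. In Mbd3del mice it called 1222 in LMPP over HSC, 474 in ALP over LMPP and 207 in BLP over ALP, where edgeR called 766, 242 and 69. In control mice the counts were 1132, 282 and 67 with DESeq2 and 655, 102 and 29 with edgeR. For the differences between genotypes in LMPP over HSC, ALP over LMPP, BLP over ALP and BLP over HSC, DESeq2 called 27, 15, 10 and 48 and edgeR 0, 0, 0 and 6. With the block, edgeR called 154 in ALP over LMPP and 41 in BLP over ALP of Mbd3del mice, 54 and 14 in control mice, and 1 for the genotype difference in BLP over HSC. Between genotypes in HSC, LMPP, ALP and BLP the newer edgeR estimator called 1, 10, 4 and 58 genes and the joint fit 4, 8, 9 and 31. Without the 2 control mice, 436 genes were called in LMPP over HSC, 31 in ALP over LMPP and 8 in BLP over ALP of control mice, and 1 between genotypes in BLP. Depth limits mt-Nd3 and the tRNA genes, with at most 399 counts per library.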
